A study of Rattus norvegicus with 12 samples.

Results

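The Cyp2c subfamily of cytochrome P450 enzymes was compared between cystic livers of PCK rats and livers of Sprague Dawley control rats. Its members were the probe sets whose platform gene symbol is Cyp2c6, Cyp2c7, Cyp2c11, Cyp2c12, Cyp2c13, Cyp2c22, Cyp2c23 or Cyp2c24. Of these 8 symbols 4 had a row, Cyp2c11, Cyp2c22, Cyp2c23 and Cyp2c24, among 16592 named genes. The other 4 were not analysed here. RNA from whole liver of 6 PCK and 6 control rats was measured on Affymetrix arrays, 1 array per animal. PCK rats carry an inherited mutation of Pkhd1 that gives cysts in the kidneys and bile ducts, and their strain is labelled Crj:CD/SD, a cesarean-derived Sprague Dawley line. The control strain is labelled Sprague Dawley only, so the disease and any other difference between the colonies cannot be told apart. All animals were male and 10 weeks old, ate a standard rat diet and were anaesthetised with isoflurane before death.

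Cytochrome P450 enzymes are haem proteins of the endoplasmic reticulum that add oxygen to steroids, fatty acids, retinoids and drugs, with electrons passed on by the reductase Por. In rat liver several Cyp2c genes are expressed by sex: pulsatile growth hormone in males maintains Cyp2c11 through the factor STAT5B, and the more continuous growth hormone of females maintains Cyp2c12. Other members make epoxides of arachidonic acid or hydroxylate retinoic acid. RefSeq lists 17 genes and pseudogenes with a Cyp2c name in the GRCr8 assembly, 11 of them protein-coding, all on chromosome 1. Members are close relatives, and the probe sequences were not used here, so cross-hybridisation between them, or with members that had no row, was not tested.

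The members did not move together. Cyp2c11 fell to 54.8% of its control level, Cyp2c23 fell slightly, Cyp2c22 rose, and the difference of Cyp2c24 did not pass the test. With limma and Benjamini-Hochberg adjustment over all named genes, 2 of the 4 members were lower and 1 was higher in PCK livers at an adjusted p under 0.05. Of all named genes 38.3% passed the same test, 21.0% lower and 17.4% higher. The counts of each gene list below are to be read beside these shares. The PCK and control values of 3 of the 4 members did not overlap, as for 21.6% of all named genes. The absolute log2 difference of each member was above that of most genes, which had a median of 0.0509, but none reached 2-fold. Many of the named genes are dim (table median 5.66), where signal could not be told from background. The figures over all genes may thus be a low bar for the bright Cyp2c11, Cyp2c22 and Cyp2c23. Shares over bright genes alone are not given here. In bulk liver, fewer cells of a type and less RNA per cell cannot be told apart, which holds for each difference below.

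**Figure D1:**
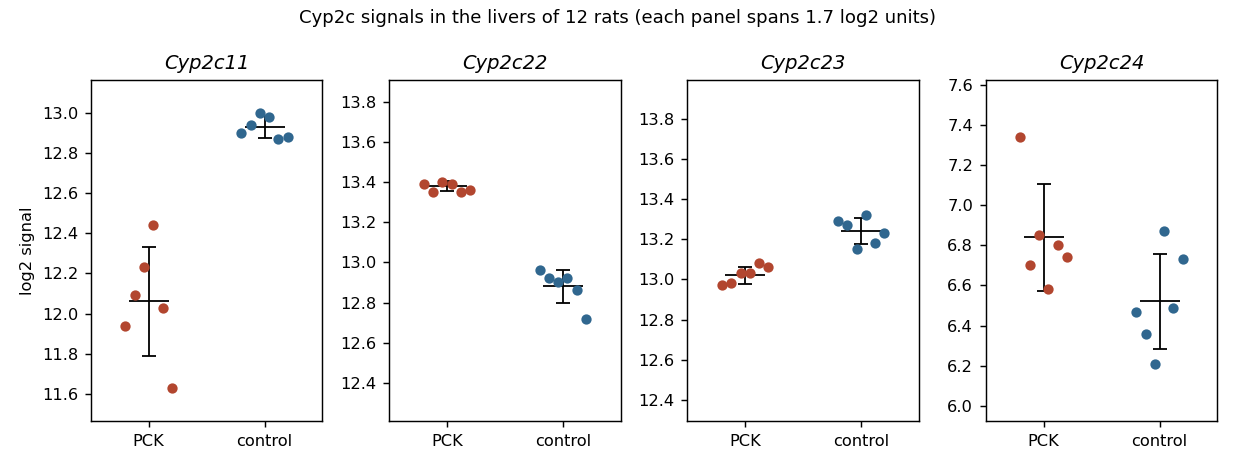
Log2 signal of the 4 Cyp2c members in each rat (points), PCK left and control right in each panel, with the mean and SD of 6 animals (bars). The PCK points of Cyp2c11 and Cyp2c23 lie below all control points, those of Cyp2c22 lie above them, and those of Cyp2c24 overlap with them.

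Cyp2c11 is the main male-specific P450 of rat liver and hydroxylates testosterone and other steroids. Its log2 signal ran from 11.63 over a median of 12.06 to 12.44 in PCK livers, against 12.87, 12.92 and 13.00 for the lowest, median and highest control livers. The highest PCK liver was 0.43 below the lowest control liver. The mean was 12.06 ± 0.273 in PCK and 12.93 ± 0.0560 in control livers (log2, SD, n = 6 each), so the animals of the PCK group were spread more widely. The difference was -0.87 ± 0.108 (log2, SE; 95% interval -1.10 to -0.63; limma adjusted p = 8.76e-05). Of all 16592 genes 133 had a larger fall.

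Cyp2c22 is known in the rat as a liver enzyme that hydroxylates retinoic acid. The RefSeq table lists Cyp2c70 among its other names, the name of the mouse enzyme that makes muricholic bile acids. Its log2 signal was 13.35, 13.38 and 13.40 in the lowest, median and highest PCK livers, against 12.72, 12.91 and 12.96 in control livers. The lowest PCK liver was 0.39 above the highest control liver. Here the PCK group was the tighter one, at 13.38 ± 0.0250 against 12.88 ± 0.0839 in control livers (log2, SD, n = 6 each). The rise was 0.50 ± 0.0342 (log2, SE; 95% interval 0.42 to 0.57; limma adjusted p = 1.55e-06), or 1.41-fold. The PCK mean stood 0.60 below the highest value of the table and the control mean 1.10 below it. The table holds no saturation marks, so whether signal at the top of the range was limited by the scanner was not tested.

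Cyp2c23 is an epoxygenase of arachidonic acid, best known from the rat kidney, whose products act on vessels and on salt transport. Its log2 signal was 12.97, 13.03 and 13.08 in the lowest, median and highest PCK livers, against 13.15, 13.25 and 13.32 in control livers. The groups were apart by 0.07. The means were 13.02 ± 0.0435 in PCK and 13.24 ± 0.0657 in control livers (log2, SD, n = 6 each). The difference of -0.22 ± 0.0309 (log2, SE; 95% interval -0.28 to -0.15; limma adjusted p = 0.000226) left 86.0% of the control level and was the smallest in size of the 4 members. It exceeded the absolute difference of 81.0% of all genes, many of which were dim.

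Cyp2c24 lies next to Cyp2c11 on the chromosome. No role is given here, since the RefSeq table attaches the older protein name CYPIIC24 to another gene, Cyp2c55. Its log2 signal was 6.58, 6.77 and 7.34 in the lowest, median and highest PCK livers, against 6.21, 6.48 and 6.87 in control livers. The groups overlapped, with PCK 1 the highest of all 12 animals and control 4 the highest of its group. The difference was 0.31 ± 0.138 (log2, SE; 95% interval 0.01 to 0.62) and did not pass the test over all genes (limma adjusted p = 0.0957). It depended on single animals: without control 4 it was 0.38 (limma adjusted p = 0.0465), and without PCK 1 it was 0.21 (limma adjusted p = 0.157). The mean signal, 6.84 in PCK and 6.52 in control livers, was above the median of the table, 5.66.

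The neighbours Cyp2c11 and Cyp2c24 are shown by their promoters because these share sequence while only the first gene's difference passed the test. The RefSeq promoters below are the 250 bases before the start, 5′ to 3′, on the plus strand of GRCr8, at chr1:246174966-246175215 and chr1:246286091-246286340. Capitals mark the longest run of identical bases, 45 bases long and 19 to 63 bases before the start of Cyp2c11.
Cyp2c11: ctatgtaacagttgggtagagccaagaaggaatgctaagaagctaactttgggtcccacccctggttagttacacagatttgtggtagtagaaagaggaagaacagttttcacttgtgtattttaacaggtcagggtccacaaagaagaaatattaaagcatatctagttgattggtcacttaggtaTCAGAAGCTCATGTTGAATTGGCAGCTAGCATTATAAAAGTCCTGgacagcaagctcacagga
Cyp2c24: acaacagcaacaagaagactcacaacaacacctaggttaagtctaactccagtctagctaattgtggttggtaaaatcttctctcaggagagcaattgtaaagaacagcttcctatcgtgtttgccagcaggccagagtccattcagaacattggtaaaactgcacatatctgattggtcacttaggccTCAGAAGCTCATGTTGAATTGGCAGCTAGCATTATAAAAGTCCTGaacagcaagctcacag
In a global alignment 64.2% of the columns of this pair were identical, against 46.9% to 51.6% for the other 5 pairs of members, whose longest identical runs were 7 to 10 bases.

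Motif letters were searched on both strands of the same windows. The nuclear receptor half-site AGGTCA was present in Cyp2c11, 118 to 123 bases before the start, and in Cyp2c22, and in 14.1% of 33469 RefSeq promoters. The C/EBP letters TTGCNNAA were present at 2 places in Cyp2c22 and in 9.22% of promoters. The letters TTCNNNGAA (STAT5, in 7.67% of promoters), CAAAGTCCA (HNF4A, 0.338%), GTTAAT (HNF1, 6.45%) and ATTGAT (HNF6, 7.10%) were not in the windows of the 4 members, and Cyp2c23 and Cyp2c24 held none of the 6 motifs. The matches in these windows did not overlap each other. The Cyp2c22 window, at chr1:248980768-248981017 on the minus strand, is shown because this gene rose and held most of the matches, which are in capitals.
Cyp2c22: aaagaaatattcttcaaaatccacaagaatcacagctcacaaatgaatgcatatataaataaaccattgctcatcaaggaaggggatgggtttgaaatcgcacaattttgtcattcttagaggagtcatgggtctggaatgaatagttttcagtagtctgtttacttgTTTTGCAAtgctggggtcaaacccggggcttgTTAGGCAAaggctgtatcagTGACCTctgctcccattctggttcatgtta

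Some genes lay about as far from their control means as the members did. Each gene was taken relative to its own control mean, and likeness was the root mean square difference of the 12 log2 values. Nearest to Cyp2c11 were Enpep, a glutamyl aminopeptidase, at 0.137, and Amacr, a racemase of branched fatty acids and bile acid intermediates, at 0.142. Both fell by nearly the same amount, at -0.84 and -0.83 (log2; limma adjusted p = 3.85e-05 and 9.14e-05). Nearest to Cyp2c22 were Rab7a, a GTPase of late endosomes, at 0.067, and the tubulin Tuba1c at 0.069. Nearest to Cyp2c23 were the heparan sulfate proteoglycan Sdc2, at 0.045, and Mettl23 at 0.049. Mettl23 was dim, at 5.72 in PCK and 5.92 in control livers (mean log2). The nearest genes were chosen for this likeness, so it is a description with no test. An equal difference between the groups is enough to make this measure small. Whether these genes varied with the members from animal to animal within a group was not tested.

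**Figure D2:**
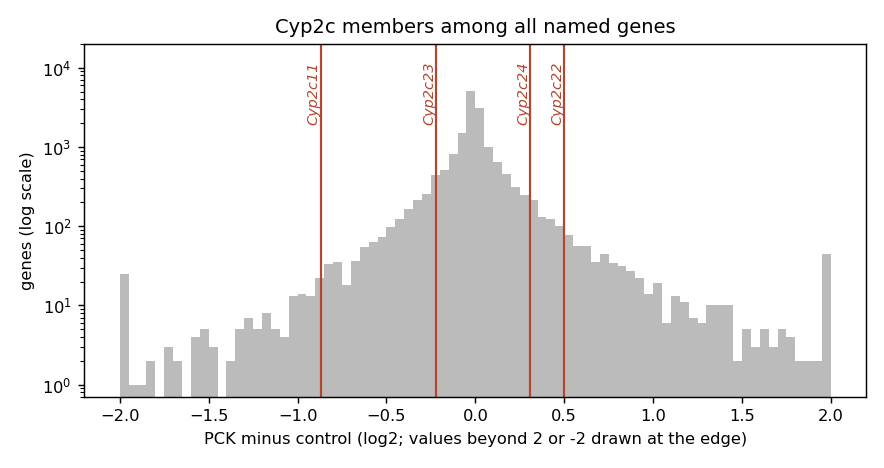
Number of named genes (log scale) by PCK minus control difference (log2, bins of 0.05, values beyond 2 or -2 drawn at the edge), with the 4 Cyp2c members as vertical lines. Cyp2c11 lies in the lower tail, at -0.87, and Cyp2c22 in the upper, at 0.50.

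Falls were more common than rises among the other drug and steroid metabolising P450 enzymes. Of 31 measured Cyp1 to Cyp3 genes outside Cyp2c 14 fell and 4 rose, with a median of -0.130 against -0.00667 over all genes (log2 differences). Of the rises, Cyp1b1 (5.53 in PCK, 5.33 in control livers) and Cyp2j10 (5.39 and 5.32) lay below the table median of 5.66 (mean log2). Several genes that did not pass were as dim, and Cyp2b1, which fell, was at 5.44 in PCK livers. Signal this low could not be told from background. The falls were led by Cyp3a18 at -3.55, Cyp3a9 at -2.87 and the phenobarbital-inducible Cyp2b2 at -2.19 (log2; limma adjusted p = 6.49e-08, 1.32e-06 and 0.00119). The fall of Cyp2c11 was less than each of these in size and near that of the male-specific Cyp3a2, -0.91 ± 0.241 (log2, SE; limma adjusted p = 0.0116). Without PCK 3, the lowest animal, Cyp3a2 was at -0.67 (limma adjusted p = 0.000367). The rise of Cyp2c22 matched in size that of Cyp2a1, a testosterone hydroxylase that female rats express more, at 0.50 ± 0.0878 (log2, SE; limma adjusted p = 0.000991).

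**Figure D3:**
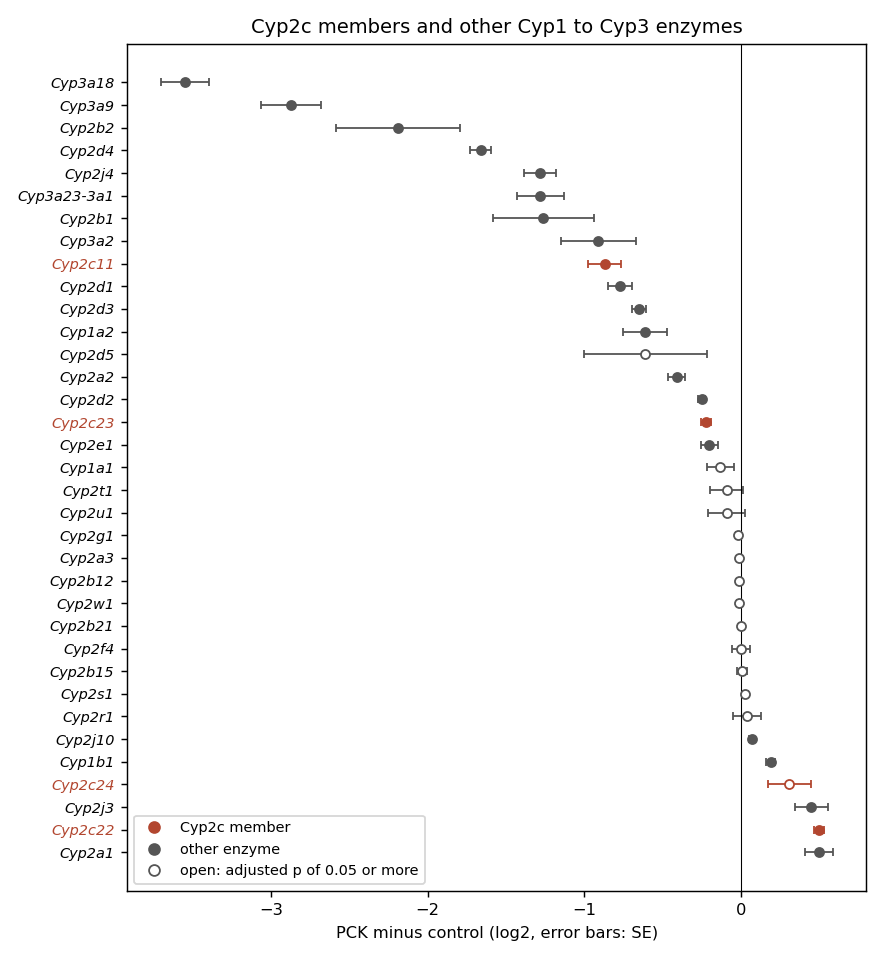
PCK minus control difference (log2, points, with SE as bars) of the 4 Cyp2c members, in red, and 31 other Cyp1 to Cyp3 enzymes, in grey; open points had an adjusted p of 0.05 or more. From the largest fall at the top, Cyp2c11 follows 8 other enzymes, at -0.87, and Cyp2c22 lies next to last, at 0.50.

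Some genes of electron transfer and of haem synthesis and breakdown changed. Of 16 measured, 6 fell and 2 rose. Of the 12 that carry electrons or make haem 5 fell and none rose with limma (0 higher also at an unadjusted p under 0.05), and of the 4 that break haem down 2 rose and 1 fell, a division made after the values were seen. Por, the reductase that serves the microsomal P450 enzymes, ran from 8.08 to 8.78 in PCK livers, against 9.11 to 9.89 in control livers (log2), and the groups did not overlap. It fell by 1.33, at -1.33 ± 0.153 (log2, SE; limma adjusted p = 5.20e-05). Fech, which inserts iron to form haem, fell (-0.42), and the haem-degrading enzyme Hmox1 rose by 0.62 (limma adjusted p = 0.000716 and 0.000134).

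Cyp2c11 fell together with the other male-biased genes. All 8 measured genes of a list of male-biased liver genes outside Cyp2c fell, with a median log2 difference of -0.674. The largest falls were those of Cyp3a18, of the carbonic anhydrase Car3 at -2.85 ± 0.456 (log2, SE; limma adjusted p = 0.000508), and of the fatty acid hydroxylase Cyp4a2 at -1.53. Earlier results of these data had shown lower male-biased genes, so the count is not independent evidence. Nor is it separate from the other lists. Cyp2a2, Cyp3a2 and Cyp3a18 were also counted among the Cyp1 to Cyp3 genes, and Cyp4a2 among the arachidonate genes. Mup4 was dim, at 5.69 in PCK and 6.13 in control livers (mean log2), against a table median of 5.66. Among PCK livers the order of animals was partly shared: PCK 4 had the highest value of Cyp2c11, at 12.44, and of 5 of the 8 genes, and PCK 6 had the lowest value of Cyp2c11, at 11.63, and of 3 of the 8. Car3 was at 11.79 in PCK 4 and 8.40 in PCK 6. This order was not particular to male-biased genes. PCK 4 was also the highest PCK liver for the female-biased Sult2a1 (8.81), Cyp3a9 (8.41) and Hao2 (11.21). PCK 6 was the lowest for Cyp3a9 (7.11) but not for Sult2a1 or Hao2. How often these animals were highest or lowest over all genes is not given here.

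Female-biased genes did not move the opposite way as a group. Of 9 measured 4 fell and 1, Cyp2a1, rose. The sulfotransferase Sult2a1 fell (-2.93), as did Cyp3a9 and the hydroxy acid oxidase Hao2 at -0.89 (limma adjusted p = 5.66e-06 for Sult2a1 and 1.35e-05 for Hao2). The female-specific Cyp2c12 was not analysed here.

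**Figure D4:**
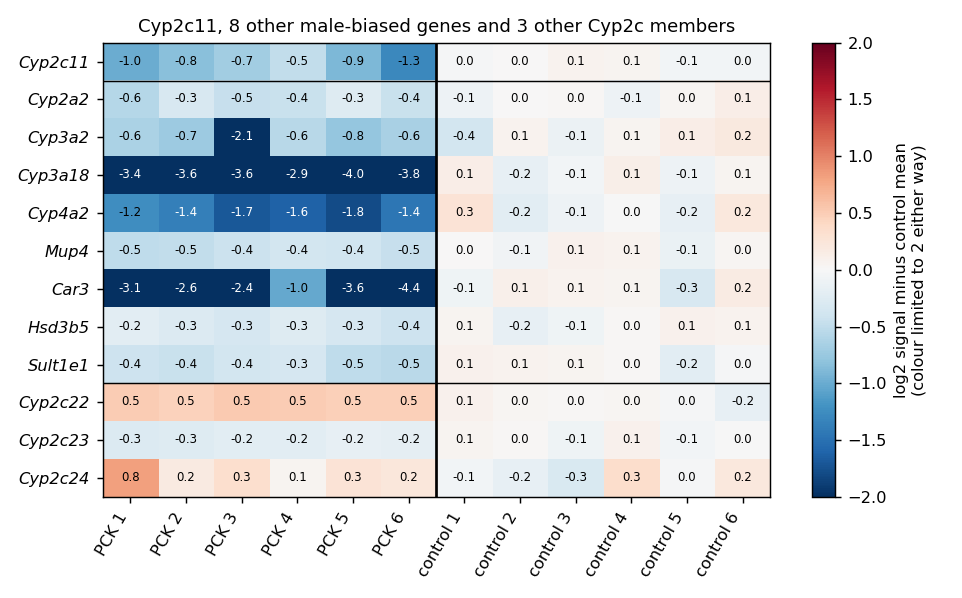
Log2 signal of each of the 12 rats minus the control mean of the gene (numbers and colour, limited to 2 either way), PCK rats left of control rats, for Cyp2c11 (top row), 8 other male-biased genes and the other 3 Cyp2c members (bottom rows). The male-biased genes and Cyp2c11 are below 0 in all 6 PCK rats, and Cyp2c22 is near 0.5 in each of them.

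Genes of growth hormone signalling went both ways. Of 19 genes of this pathway and of liver transcription factors 4 fell and 3 rose, shares near those of all genes. The growth hormone receptor Ghr was at 12.28 ± 0.0449 in PCK and 12.18 ± 0.0621 in control livers (log2, SD, n = 6 each), a difference of 0.09 (limma adjusted p = 0.0310) that lost its call in 6 of 18 alternatives, with an adjusted p of up to 0.0660: with another variance model and without PCK 2, PCK 3, PCK 5, control 2 or control 6. The receptor's kinase Jak2 ran from 6.64 to 6.95 in PCK livers, against 6.39 to 6.62 in control livers. It rose by 0.27 (log2; limma adjusted p = 0.00316), with groups that did not overlap, and kept its call in all 18 alternatives. Stat5b, at 0.01, and the growth hormone target Igf1, at -0.04, did not pass (limma adjusted p = 0.927 and 0.101). Socs2 had the largest rise of the list, 1.19 ± 0.535 (log2, SE), with groups that overlapped. Neither Socs2 nor Cish, at 0.15, passed (limma adjusted p = 0.104 and 0.813). The signal of Igf1, 13.19 in PCK and 13.23 in control livers (mean log2), lay near the top of the range. Igf1 passed, at -0.05, without PCK 4 or without control 6 (limma adjusted p = 0.0317 and 0.0421). Bcl6, a repressor that acts against STAT5, was lower, at -2.03 ± 0.638 (log2, SE; limma adjusted p = 0.0259). It ran from 5.45 to 6.38 in PCK livers, against an uneven 5.87 to 9.63 in control livers, and the groups overlapped. Its PCK mean, 5.74, lay near the table median of 5.66, where a fold is not exact. Without control 3 or control 5 its adjusted p was 0.0557 and 0.0528. The liver factor Hnf4a fell by 0.29 (-0.29; limma adjusted p = 0.00136) and the oestrogen receptor Esr1 by 0.61 (-0.61; limma adjusted p = 0.00180). The other called genes were the repressor Cux2, at -0.08, and the liver factor Foxa3, at 0.17 (limma adjusted p = 0.0400 and 0.0445), which lost their calls in 11 and 9 of 18 alternatives. The count of 7 was 4 without PCK 2 or without control 2. Ghr, Jak2, Cux2, Foxa3, Stat5b, Igf1, Socs2 and Cish were named after their values were seen.

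Several nuclear receptors fell. Their list also held the dioxin receptor Ahr, its partner Arnt and coregulators, which are not nuclear receptors. Of 16 measured genes 8 fell and none rose with limma at this threshold; at an unadjusted p under 0.05, 8 were lower and 1 was higher. Counted alone, after the values were seen, 7 of 11 nuclear receptors fell and the other 4 did not pass. Ahr was the other gene that fell. Nr1i3, the constitutive androstane receptor, which drives Cyp2b and some Cyp2c genes, was at 6.86 to 7.22 in PCK and 8.97 to 10.20 in control livers, a difference of -2.42 ± 0.196 (log2, SE; limma adjusted p = 4.55e-06). The pregnane X receptor Nr1i2 fell by 0.81 (-0.81; limma adjusted p = 3.53e-05) and the bile acid receptor Nr1h4 by 0.59 (-0.59; limma adjusted p = 6.75e-05).

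The substrates of Cyp2c23 and Cyp2c22 lead to a pair of pathways. Of 27 arachidonate and epoxide genes 10 rose and 9 fell, where 17.4% of all named genes rose and 21.0% fell. Of the rises, Ptgs2 (5.49 in PCK, 5.38 in control livers) and Alox5 (5.43 and 5.34) lay below the table median of 5.66 (mean log2). Ephx2, the soluble epoxide hydrolase that degrades epoxides of arachidonic acid, ran from 5.57 to 5.70 in PCK livers, at the median of the table, against 6.08 to 8.32 in control livers, so the size of its fall (-1.70; limma adjusted p = 0.00150) is not exact. The epoxygenase gene Cyp2j4 fell (-1.28; limma adjusted p = 4.33e-06) and its relative Cyp2j3 rose by 0.45 (limma adjusted p = 0.00512). Of 20 retinoid genes 5 rose and 7 fell. Aldh1a2, 1 of those that rose, was also below the table median, at 5.57 in PCK and 5.33 in control livers (mean log2). Bco1, which cleaves beta-carotene to retinal, was higher by 3.40 ± 0.0747 (SE on the log2 scale; limma adjusted p = 2.59e-10), the retinol dehydrogenase Rdh16 fell (-2.18; limma adjusted p = 1.32e-06), and the retinal dehydrogenase Aldh1a1 rose by 1.01 (limma adjusted p = 0.00778). The retinoic acid hydroxylase Cyp26a1, at 5.59 in PCK and 5.55 in control livers (mean log2), was close to the median of the table and did not pass (limma adjusted p = 0.219).

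**Figure D5:**
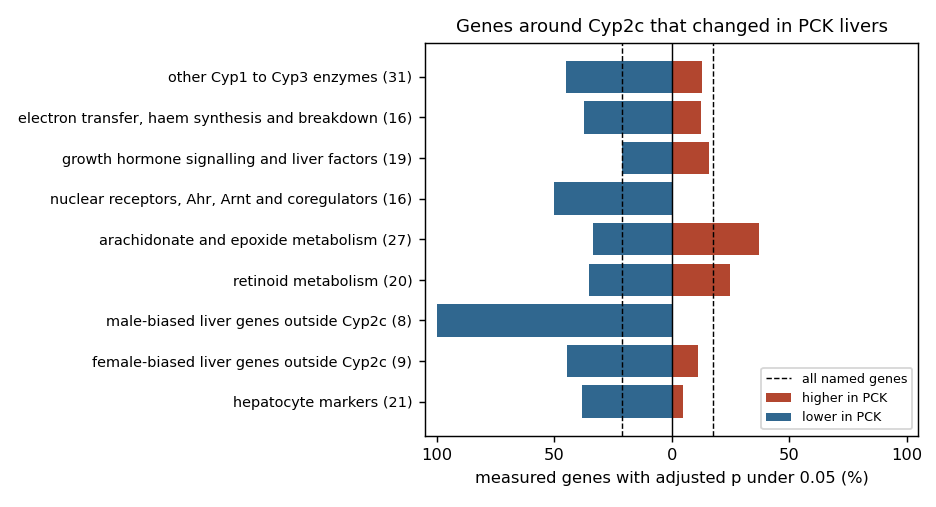
Share of measured genes (number in brackets) that passed the test, lower in PCK to the left in blue and higher to the right in red, for the lists around Cyp2c; dashed lines mark the shares of all named genes, 21.0% lower and 17.4% higher. The bars of the male-biased genes and of the nuclear receptors with Ahr, Arnt and coregulators point to the left only.

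Hepatocytes, the cells that express most Cyp2c RNA, were compared with other cells through marker lists. Of 21 hepatocyte markers 8 fell and 1 rose, with a median log2 difference of -0.016, and their mean log2 signal was 12.77 to 12.81 in PCK and 12.75 to 12.86 in control livers. Alb, the brightest gene on each array, is fixed by the shared distribution of the arrays and cannot differ. Tf was at 13.88 in every PCK liver. Most of these markers lie near the top of the signal range, and whether this limits their differences was not tested. Of the dimmest in control livers, Asgr1 (-0.18), Asgr2 (-0.14), Hnf4a (-0.29), Arg1 (-0.21) and Otc (-0.32) fell. G6pc1, at 0.77, did not pass (limma adjusted p = 0.0534). Of 10 bile duct markers 9 rose and none fell with limma (0 lower also at an unadjusted p under 0.05), and their mean was 6.20 to 6.60 in PCK against 5.73 to 5.79 in control livers. Macrophage markers rose in 7 of 9 (mean 8.81 to 9.19 in PCK, 8.05 to 8.64 in control livers), and acute phase genes in 8 of 14 (12.31 to 12.47 in PCK, 11.65 to 11.79 in control livers). In PCK 6, with the lowest Cyp2c11, the bile duct keratin Krt19 was at 8.28, the macrophage lysozyme Lyz2 at 11.68 and the acute phase protein Lcn2 at 12.26 (log2), each the highest of the 12 animals. The other PCK livers did not all keep to this order. In PCK 4, with the highest Cyp2c11 of the PCK livers, Krt19 was at 7.70 and Lyz2 at 11.31, each next after PCK 6. Lcn2, at 11.12, was lowest there among PCK livers. The part of these cells and genes in the differences of the members was not tested. The labelled groups separated on the first principal component, which held 74.5% of the variance. Correlations between arrays were 0.994 to 0.998 within groups and 0.975 to 0.985 between groups.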

How the data were processed

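The authors deposited 1 table of log2 signals, 19239 gene-level probe sets on 12 arrays. The log2 scale was read from the values, 5.14 to 13.98 with no negative ones. The sorted values of all columns are identical, as after quantile normalization, which removes any difference in total RNA; the sources used here do not give the summarising software or the array type. The values hold no detection calls, so signal near the bottom could not be told from background. Per the labels, RNA was isolated with Trizol and labelled as biotinylated cRNA.

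The platform's annotation named 16592 probe sets; 3326 older symbols were updated through RefSeq (GRCr8), and 2647 probe sets had no name. Genes were tested with limma 3.58.1 (R 4.3.3; lmFit, eBayes, 2-sided, no filter, Benjamini-Hochberg over 16592 genes, threshold 0.05), tested on simulated data first. Differences are PCK minus control, with the moderated SE. The titles call the replicates biological, and their number limits the precision.

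The members and lists were chosen with earlier results of these data known. The rule named all members and up to 3 called genes per list; other genes were chosen after their values were seen. For the nearest genes the rule asked for an absolute difference of at least 1, which no member reached, so that limit was dropped afterwards. Some genes stand in more than 1 list, so the counts of the lists are not separate. List genes without a row were not analysed. Figures used matplotlib 3.10.9 (Python 3.11.15).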

Additional observations from a re-analysis of the deposited data

Results flagged for a closer look

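For the members and most of the other named genes, 104 combinations of gene and group were examined by Dixon's criterion. An animal far from the other 5 of its group was found in 9. The criterion flags about 1 in 20 by chance in independent combinations. These combinations share arrays, and some genes were chosen after their values were seen, so the 9 cannot be set against that rate. Cyp2c24 stood out in PCK 1, at 7.34, with the other PCK livers at 6.58 to 6.85 (log2). In PCK 6, Krt19 was at 8.28 against 7.38 to 7.70 in the other PCK livers, Lyz2 at 11.68 against 11.17 to 11.31, and Lcn2 at 12.26 against 11.12 to 11.54. Por was at 9.11 in control 3 against 9.61 to 9.89 in the other control livers. Cyp3a2 was at 10.75 in PCK 3 against 12.08 to 12.29 in the other PCK livers, and Stat5b at 9.75 in PCK 1 against 9.31 to 9.42. Cyp26a1 stood out in both groups, at 5.71 in PCK 4 against 5.55 to 5.59 in the other PCK livers, and at 5.62 in control 2 against 5.52 to 5.54 in the other control livers.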

How the results depend on the processing

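The direction and call of Cyp2c11 (-0.94 to -0.78), Cyp2c22 (0.46 to 0.51) and Cyp2c23 (-0.23 to -0.20) were the same in all 18 alternatives run for each, which changed the scaling, the variance model, the array weights, the probe sets entered, the filter or the block, or left out 1 array. Their highest adjusted p was 0.000943, 0.000220 and 0.00624. For Cyp2c24 the difference ran from 0.21 to 0.38 and the adjusted p from 0.0465 to 0.184; leaving out control 4 was the only alternative that called it, which made the members called 4 in place of 3. Over all genes 4273 (adjusted p under 0.01) to 7056 (unnamed probe sets included) were called, against 6362, and leaving out single arrays gave 5731 to 6367. For growth hormone signalling and liver factors, leaving out single arrays gave 4 to 9 called genes, against 7. Cux2 and Foxa3 lost their calls in 11 and 9 of 18 alternatives, with an adjusted p of up to 0.141 and 0.131, both with the replicate block. The difference of Stat5b, 0.01 and not called, ran from -0.05 to 0.06 and was below 0 without PCK 1, control 1 or control 4 (-0.05, -0.03 and -0.02). That of Gls2, 0.04 and not called, ran from -0.02 (without control 3) to 0.09, and Pck1, -0.16 and not called, was called at -0.25 without control 4. The same-numbered arrays showed little shared deviation (correlations of -0.137 to 0.165 over genes), and the numbers were not taken as pairs. A pairing that leaves little trace in expression could not be seen this way. With the replicate number as a block 5423 genes and the same 3 members were called. Comparisons of Cyp2c11 with Cyp2c7, Cyp2c12 and Cyp2c13 had been planned and were not run, since those 3 had no row. Proteins of the members were not compared. The other 3 members lie near the top of the signal range, and whether this limits the size of a difference was not tested.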

Other observations

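Many P450 enzymes are expressed most by hepatocytes around the central vein. Of 9 measured pericentral markers 6 fell and 1 rose, with a median log2 difference of -0.201, and the list mean was 8.40 to 8.59 in PCK against 8.66 to 9.06 in control livers. The pericentral factor Tbx3 fell to 5.77 in PCK livers, against 6.77 in control livers (mean log2; limma adjusted p = 3.40e-05), as did the glutamate transporter Slc1a2 (-0.90; limma adjusted p = 0.000156) and Cyp1a2 (-0.61; limma adjusted p = 0.00535). Tbx3 and Slc1a2 had PCK levels of 5.77 and 5.92, close to the table's median of 5.66, where a fold is not exact.

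Of 11 measured periportal markers 4 fell and 1 rose, with a median of -0.075. Hal, which starts histidine breakdown, fell (-1.14; limma adjusted p = 1.72e-05), while Gls2, at 0.04, and Pck1, at -0.16, did not pass (limma adjusted p = 0.745 and 0.296). Without control 4, Pck1 passed at -0.25 (limma adjusted p = 0.0393). The 2 lists were not tested against each other. Of 7 endothelial markers 3 fell and 1 rose, and of 10 stellate and myofibroblast markers 6 rose and 3 fell. Of 9 markers of pancreas and kidney none rose with limma (0 also at an unadjusted p under 0.05) and 3 fell, by small amounts at the bottom of the range, where the list mean was 5.39 to 5.42 in PCK and 5.43 to 5.46 in control livers.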
